A study of Homo sapiens with 12 samples.

Results

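The virus restriction factors examined here are 10 human genes whose products block steps of virus growth inside a cell: IFITM1, IFITM2, IFITM3, TRIM5, TRIM21, TRIM22, TRIM25, BST2, SAMD9 and SAMD9L. A gene counted as measured where a row of the array table was annotated to it alone. This held for 7 of the 10 genes, 7 rows of the 22011 in the table: IFITM1, TRIM21, TRIM22, TRIM25, BST2, SAMD9 and SAMD9L. The other genes, IFITM2, IFITM3 and TRIM5, were named only on rows annotated to several genes.

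Many of these genes are switched on by type I interferon or by the sensing of foreign RNA or DNA, through a promoter sequence known as the interferon-stimulated response element (ISRE). IFITM proteins sit in membranes and hinder fusion of enveloped viruses. TRIM proteins are ubiquitin ligases, among them binders of retroviral capsids, an antibody receptor of the cytosol and a regulator of the RNA sensor RIG-I. BST2, also called tetherin, holds budding virus particles on the cell surface, and SAMD9 and SAMD9L restrict poxviruses and can shut down protein synthesis.

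The arrays measured RNA of HEK293, a cell line derived from human embryonic kidney, in 4 groups, each with 3 replicates that the labels call biological. The first group received a plasmid (peGFP-C1) that drives 1 short hairpin RNA against MED12 (MED12 shRNA 5) from the H1 promoter; the second received full-length MED12 in pcDNA5/TO. The third received MED12 lacking its C-terminal PQL and Opa domains in the same vector, and the control received nuclear-localized GFP in that vector. Both MED12 proteins carried an N-terminal nuclear GFP tag. MED12 is a subunit of Mediator, which connects transcription factors with RNA polymerase II. Every group was plated for 24 hours, then transfected with a lipid reagent and taken up 48 hours after transfection, and viable GFP-positive cells were sorted for 20 minutes. The hairpin group differed from the GFP control in vector backbone and in carrying a hairpin as well as in its target, and no group received another hairpin. Lowered MED12, the hairpin RNA and the vector therefore cannot be told apart in that comparison.

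The genes were chosen by their role, and selected on earlier results of these same arrays: their values in the shRNA arrays relative to the GFP arrays were known. The shRNA comparison is accordingly given as a description: how many of the genes lay past the threshold of the all-row fit is printed as a count, which is not a test of them. Tests are given for the full-length and PQL/Opa-deleted groups. Those against GFP use the same GFP arrays as the comparison that chose the genes. Low values in the GFP arrays would raise both differences, so these tests are not free of that choice. All values are on the log2 scale of the deposited table, and a difference between groups is a log2 fold change, first group minus second. A row's value depends on its own probes, so fold changes rest on comparisons between arrays. Where a row's percentile among all rows is given, it says roughly how bright that row is and does not rank RNA amounts between genes.

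MED12 itself had 3.63, 3.63 and 3.74 in the shRNA arrays, 10.63 to 10.75 with full-length MED12, 8.62 to 9.25 with the PQL/Opa-deleted construct, and 4.03, 4.56 and 4.66 with GFP. Its log2 fold change with the shRNA was -0.75 ± 0.20 (SE) and did not pass the threshold over all rows (limma, adjusted p = 0.73). Of 10 listed traits of HEK293 cells 9 were measured, and all 9 stood above the middle of the rows with GFP. They ran from KRT18 at the 55.3rd percentile to KRT8, an epithelial keratin averaging 7.25, at the 96.6th. Of the 13 measured markers of leukocytes, fibroblasts and endothelium 10 lay below the middle, and PTPRC, the general leukocyte marker, averaged 1.95, at the 8.06th percentile. Above the middle were COL1A1 at the 66.1st percentile, CD14 at the 56.3rd and COL1A2 at the 55.7th. The mean level of those 13 markers was 2.62 to 3.06 in the shRNA arrays and 2.52 to 3.05 in the GFP arrays. The standard deviation over all rows ran from 1.34 to 1.60 between arrays and was lowest in shRNA replicate 1, GFP replicate 1 and PQL/Opa deletion replicate 1, called the narrow arrays here. GFP replicate 1 was the highest GFP array for 6 of the 7 genes and the lowest for TRIM25. The part of this in single values was not tested; the median of the 7 genes without the narrow arrays stands with the results.

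The stretches of promoter that hold matches to the ISRE core are shown because the 7 genes lay on the same side of GFP in the shRNA arrays. The sequences are RefSeq's, build GRCh38.p14, read 5′ to 3′ on the strand of the gene, and capitals mark matches to the ISRE core, which was searched as GAAA, any 2 bases, GAAA. The bases before the annotated gene start are counted as negative positions. SAMD9L, which neighbours SAMD9, is given for comparison and has no match in its window.
IFITM1, chr11:313980-314044, plus strand, positions -60 to 5: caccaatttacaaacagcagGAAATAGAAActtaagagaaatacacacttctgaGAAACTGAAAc
TRIM21, chr11:4393666-4393695, minus strand, positions 8 to 37: cttctgagcgGAAACTGAAAGTGAAAtagg
BST2, chr19:17405721-17405780, minus strand, positions -150 to -91: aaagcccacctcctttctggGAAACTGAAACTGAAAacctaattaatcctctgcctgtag
SAMD9, chr7:93118080-93118139, minus strand, positions -160 to -101: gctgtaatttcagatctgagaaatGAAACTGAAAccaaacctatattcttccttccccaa
SAMD9L, chr7:93148406-93148465, minus strand, positions -80 to -21: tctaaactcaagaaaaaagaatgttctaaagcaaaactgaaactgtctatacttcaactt

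The promoter table, 250 bases before to 50 bases after each start, matched 8 of the 10 listed genes by symbol; the others were IFITM2 and TRIM22. The ISRE core, searched on both strands with overlapping matches kept, occurred in 4 of the 6 measured genes with a window (IFITM1, TRIM21, BST2 and SAMD9) and not in those of TRIM25 and SAMD9L. It occurred in 3.57% of all 35116 windows. Of the 8 listed genes with a window 6 held it, these 4 together with IFITM3 and TRIM5. In BST2 and TRIM21 a pair of matches overlapped. The 10 bases GAAACTGAAA, picked because they were the most frequent match among these genes, stood in the windows of IFITM1, TRIM21, BST2 and SAMD9 and in 0.265% of all windows. As the 10 bases were picked from these same windows, their count there is no test. Nothing is read from the 3.57% either, since the genes were chosen by their role and with their values known. A match describes letters in a window and is not evidence of binding, and no match says only that these letters are not there.

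All 7 measured restriction factors had higher means in the shRNA arrays than in the GFP arrays, with log2 fold changes of 0.40 to 2.25 and a median of 0.84. The median over all 22011 rows was 0.02, and 54.4% of rows were above 0. For 6 of the 7 genes the 3 shRNA arrays lay above the 3 GFP arrays, as in 4.71% of rows; TRIM21 overlapped. For 5 genes (IFITM1, TRIM22, BST2, SAMD9 and SAMD9L) the shRNA arrays lay above all 9 other arrays, as in 0.981% of rows. In the fit over all rows 3 of the 7 genes lay higher past the threshold (limma, adjusted p under 0.05). That was so for 0.0591% of rows, with 0.00909% lower and 0.0681% in either direction. Nothing is read from these counts and shares, since the genes were chosen with this comparison known. In sorted cells, more RNA per cell and a larger share of responding cells cannot be told apart.

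**Figure D1:**
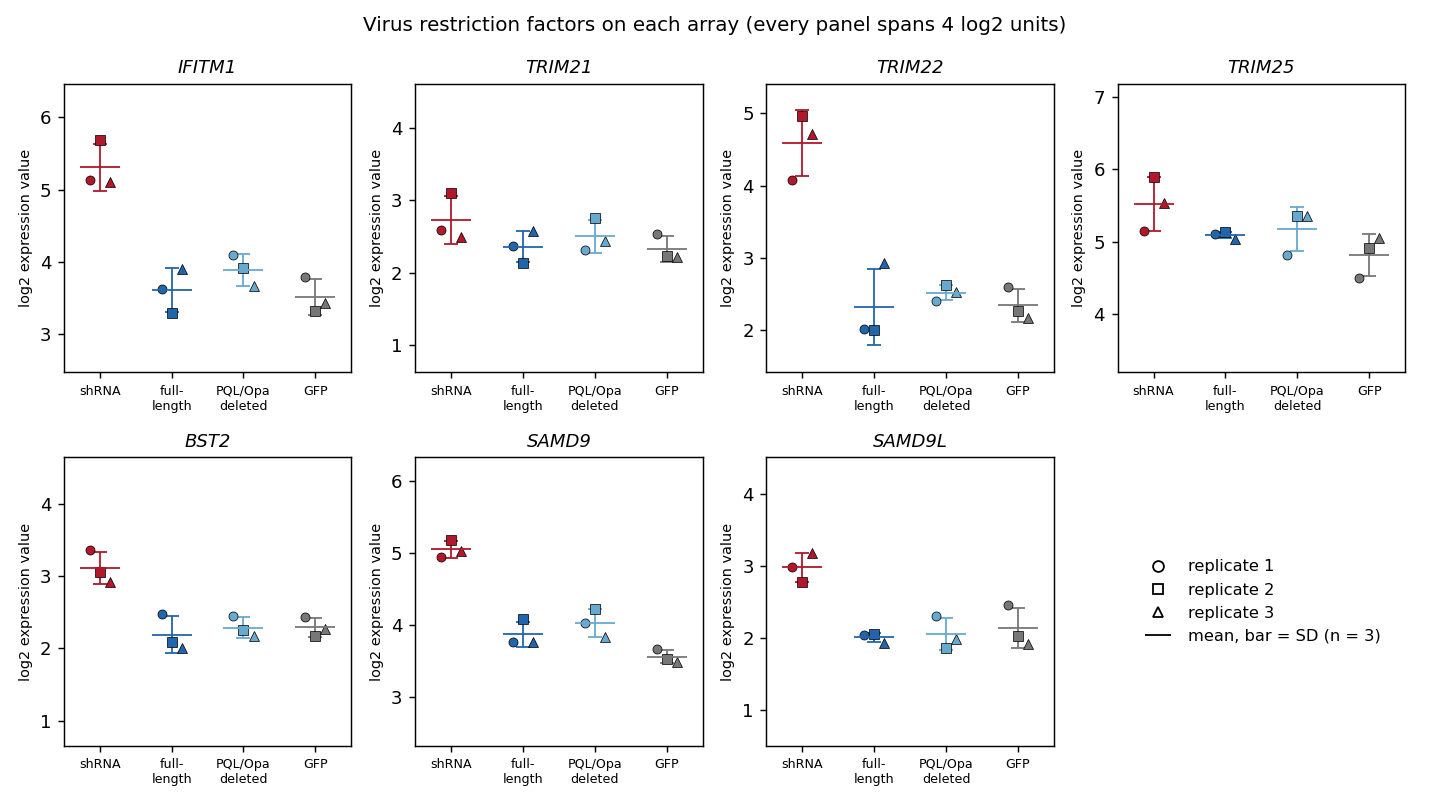
Log2 expression values of the 7 measured restriction factors on each of the 12 arrays, by group (shRNA, full-length MED12, PQL/Opa-deleted MED12, GFP); symbols mark replicates, horizontal lines the mean and bars the SD (n = 3). In the panels of IFITM1, TRIM22, BST2, SAMD9 and SAMD9L the shRNA points stand above all 9 others, and TRIM21 overlaps.

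Among the entry inhibitors, IFITM1, which acts largely at the cell surface, had 5.13, 5.68 and 5.11 in the shRNA arrays, against 3.79, 3.31 and 3.42 with GFP. The arrays of the MED12 constructs lay near GFP, at 3.62, 3.29 and 3.90 with the full-length protein and 4.09, 3.91 and 3.66 with the deletion. IFITM1 averaged 5.31 ± 0.33 in the shRNA arrays and 3.51 ± 0.25 in GFP (SD, n = 3 each), 1.80 ± 0.22 (SE) on the log2 scale or 3.48-fold. That was the rank of 11 among all rows by log2 fold change.

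IFITM2 and IFITM3 encode close relatives of IFITM1 that work mainly in endosomes, and the array could not assign a row to either. Row 3315658, annotated to both, had 4.70, 3.89 and 4.28 in the shRNA arrays, against 2.84, 3.59 and 3.70 with GFP. Its shRNA arrays all lay above the GFP arrays, as in 4.71% of rows. The log2 fold change was 0.91 ± 0.25 (SE), and the lowest GFP value was that of the narrow replicate 1. Row 3357840, annotated to the same genes, had 1.14, 1.27 and 1.52 against 2.42, 1.03 and 1.09, a log2 fold change of -0.20 ± 0.35 (SE). Its 95% interval was -0.97 to 0.56, and its highest value of all 12 arrays was that of GFP replicate 1. With its GFP mean at the 3.64th percentile of rows, the second row is not shown to be above background, and the point estimates of the 2 rows lay on opposite sides of 0.

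Of the TRIM ligases, TRIM22, an interferon-induced protein that represses HIV transcription and targets influenza nucleoprotein, had the largest difference of the 7 genes. It had 4.08, 4.97 and 4.71 in the shRNA arrays, 2.01, 2.00 and 2.92 with full-length MED12, 2.40, 2.62 and 2.53 with the deletion, and 2.60, 2.26 and 2.17 with GFP. The lowest shRNA array was more than 1 log2 unit above every other array. Its log2 fold change was 2.25 ± 0.28 (SE), or 4.74-fold, at rank 7 of all rows. With GFP the row stood at the 14.6th percentile, so it is not shown to be above background there and the size of the difference is uncertain.

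TRIM25, which ubiquitinates RIG-I pathway proteins, was a bright row with GFP, at the 85.6th percentile. It had 5.15, 5.89 and 5.53 in the shRNA arrays and 4.49, 4.91 and 5.05 with GFP, which did not overlap, and its log2 fold change was 0.71 ± 0.23 (SE). The full-length arrays, at 5.10, 5.13 and 5.04, lay just below the lowest shRNA array, and the deletion arrays, at 4.82, 5.36 and 5.35, overlapped the shRNA arrays.

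TRIM21, the cytosolic receptor for antibodies bound to incoming viruses, had the smallest difference. Its values were 2.59, 3.11 and 2.49 in the shRNA arrays and 2.54, 2.23 and 2.21 with GFP, a log2 fold change of 0.40 ± 0.21 (SE). TRIM5, the binder of retroviral capsids, shared row 3360622 with TRIM22, and that row had 2.35, 3.43 and 3.44 against 2.81, 1.94 and 2.60. These groups overlapped, with shRNA replicate 1 below GFP replicates 1 and 3, and a reading of TRIM5 alone could not be had.

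BST2, which acts at the release of virus, had 3.36, 3.06 and 2.92 in the shRNA arrays, against 2.43, 2.17 and 2.27 with GFP. The log2 fold change was 0.82 ± 0.18 (SE), or 1.77-fold, from a GFP mean at the 13.7th percentile of rows. BST2 also stood with PLVAP, an endothelial membrane protein, on row 3854417, where the shRNA arrays had 3.85, 3.29 and 3.85 and the GFP arrays 3.60, 3.18 and 3.02. That row overlapped between the groups.

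The neighbouring paralogues SAMD9 and SAMD9L, which act on translation in poxvirus-infected cells, were both higher in the shRNA arrays. SAMD9 had 4.95, 5.18 and 5.03, against 3.67, 3.53 and 3.49 with GFP, a log2 fold change of 1.49 ± 0.16 (SE) or 2.81-fold. SAMD9L had 2.98, 2.77 and 3.18, against 2.45, 2.03 and 1.92 with GFP, a log2 fold change of 0.84 ± 0.19 (SE) or 1.80-fold. The 3 shRNA values of SAMD9 had an SD of 0.12, the smallest spread among the 7 genes in that group. With GFP, SAMD9 stood at the 55.9th percentile of rows and SAMD9L at the 10.8th.

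The mean of the 7 genes relative to GFP was 1.04, 1.38 and 1.14 in shRNA replicates 1, 2 and 3. Replicate 2 was the highest shRNA array for 5 of the 7 genes, the exceptions being BST2 (replicate 1) and SAMD9L (replicate 3), and of the shRNA arrays it had the widest spread over all rows, an SD of 1.60. The group mean was 1.19 ± 0.18 with the shRNA, 0.06 ± 0.10 with full-length MED12, 0.21 ± 0.07 with the deletion and 0.00 ± 0.12 with GFP (SD, n = 3 each). Without GFP replicate 1 the median log2 fold change of the 7 genes was 1.00, and it was 1.00 without the 3 narrow arrays. The count past the threshold, which like the main one supports nothing, was 1 of 7 without GFP replicate 2 or without GFP replicate 3. With only the 6 arrays of these groups in the model it was 0 (limma).

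With full-length MED12, 0 of the 7 genes passed the test against GFP (limma; 0.0136% of all rows passed), and 0 had an unadjusted p under 0.05 (2.8% of rows, 1.44% on the higher side). MED12, the transfected gene, was among the 3 rows that passed. The adjusted p-values of the 7 genes all round to 1.00. The median log2 fold change was 0.03, against -0.01 over all rows, and 4 of the 7 were above 0, as were 48.6% of rows. SAMD9 came nearest, with 3.77, 4.08 and 3.77 against 3.67, 3.53 and 3.49 in GFP. All 3 full-length arrays lay above all 3 GFP arrays, as in 4.03% of rows. The log2 fold change of SAMD9 was 0.31, with a 95% interval of -0.04 to 0.65, which reaches 0. These p-values and intervals, and those of the deletion below, come from a fit that does not pair same-numbered arrays. For IFITM1 the log2 fold change was 0.10 (95% interval -0.40 to 0.59) and for TRIM22 -0.03 (-0.64 to 0.58). TRIM25 had 0.28 (-0.22 to 0.77), TRIM21 0.03 (-0.42 to 0.48), BST2 -0.10 (-0.49 to 0.29) and SAMD9L -0.13 (-0.53 to 0.28).

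The signs for IFITM1, TRIM21, TRIM22 and SAMD9L turned with 1 array left out, and that of TRIM22 also after quantile normalization. The 7 intervals together reach from -0.64 to 0.77, so a missed threshold does not show equal levels. TRIM22 spread most, since full-length replicate 3, at 2.92, lay above the other arrays of its group and above all GFP arrays.

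With the PQL/Opa-deleted construct again 0 of the 7 genes passed against GFP (limma; 0.00454% of rows), and 1, SAMD9, had an unadjusted p under 0.05 on the higher side (1.75% of rows; 3.46% in either direction). The 1 row that passed was that of MED12, the transfected gene. SAMD9 had 4.03, 4.23 and 3.84 with the deletion, against 3.67, 3.53 and 3.49 with GFP. The 3 arrays lay above the GFP arrays without overlap, as in 4.13% of rows, but below every shRNA array. Its log2 fold change was 0.47 (95% interval 0.13 to 0.82; limma, adjusted p = 1.00 over all rows). IFITM1 had 0.38 (-0.11 to 0.87), with 2 of 3 arrays above all GFP arrays, and TRIM25 had 0.36 (-0.14 to 0.86), also with 2 of 3. TRIM21 and TRIM22 each had 0.17, BST2 -0.0035 and SAMD9L -0.08. The sign of BST2 turned after quantile normalization, and those of BST2 and SAMD9L with 1 array left out. The median of the 7 was 0.17, against -0.01 over all rows, and 5 of the 7 were above 0, as were 48.4% of rows.

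**Figure D2:**
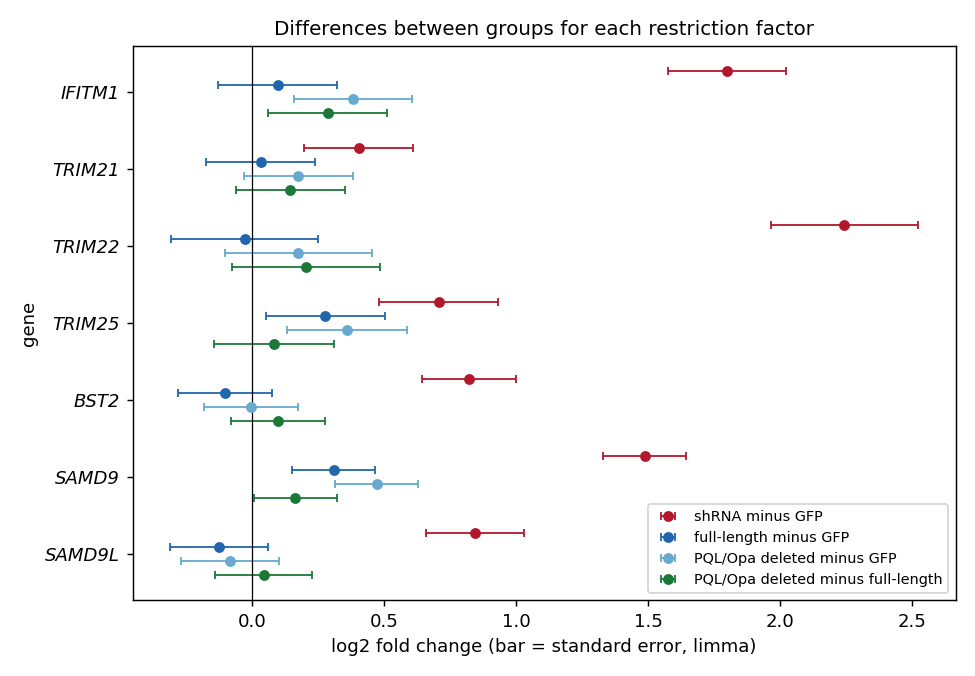
Log2 fold changes of the 7 genes in 4 comparisons (shRNA minus GFP, full-length minus GFP, PQL/Opa deleted minus GFP, and PQL/Opa deleted minus full-length), with bars for the standard error from limma. The shRNA points run from 0.40 to 2.25, and in the other 3 comparisons no point is above 0.47 (SAMD9, PQL/Opa deleted minus GFP).

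The deletion was also set directly against the full-length protein. On the MED12 row the log2 fold change was -1.76 (limma, adjusted p = 0.042), and no other row passed the threshold. A difference in construct RNA or in probe match thus cannot be told apart from the missing domains. No gene of the 7 passed (0 of 7 with limma; 0.00454% of rows passed), and 0 had an unadjusted p under 0.05 (1.9% of rows, 0.795% on the higher side). The groups overlapped for all 7 genes; 3.09% of rows had the deletion arrays all above and 3.81% all below. All 7 point estimates were above 0, from 0.04 for SAMD9L to 0.29 for IFITM1, with a median of 0.14, while 50.3% of all rows were above 0. The 7 genes were read on the same arrays and are not independent, so their shared sign is no test. The interval of IFITM1 ran from -0.21 to 0.78 and that of SAMD9 from -0.18 to 0.51. The sign of SAMD9L turned without deletion replicate 1, and that of TRIM25 without deletion replicate 2 or 3. The comparisons of shRNA, full-length MED12 and the deletion with GFP share the same 3 GFP arrays, so their values are given side by side and not correlated.

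The 7 genes did not all vary together. Over the 12 arrays the 21 pairwise Pearson correlations ran from 0.33 (TRIM25 with SAMD9L) to 0.96 (IFITM1 with TRIM22), with a median of 0.76. These include the difference between the shRNA arrays and the rest. When each array was taken as its deviation from its own group mean, the median was 0.14 and 13 of 21 pairs were above 0. IFITM1, TRIM21 and TRIM22 kept correlations of 0.68 to 0.77 with each other, and TRIM25 with SAMD9L stood at -0.77. All points share the 12 arrays and their differing spread, and TRIM25 is a bright row while SAMD9L is a dim one.

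**Figure D3:**
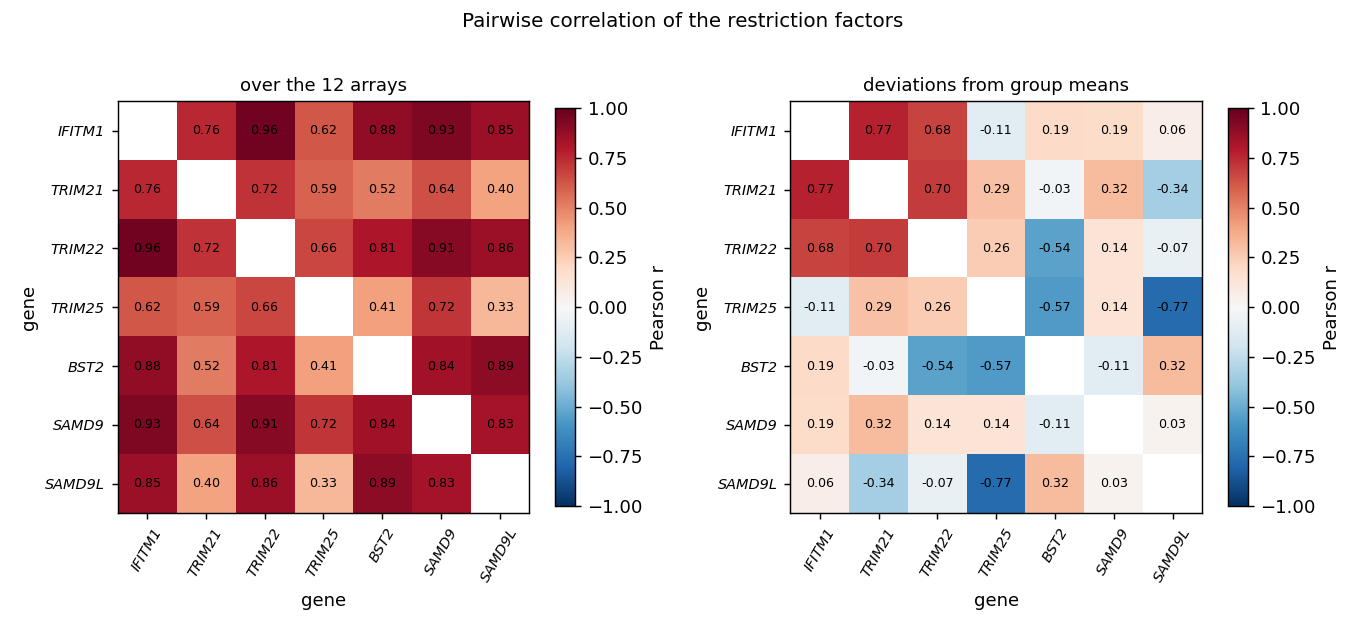
Pearson correlations between the 7 genes, over the 12 arrays on the left and over the deviations of each array from its group mean on the right. All 21 pairs are above 0 on the left, with a median of 0.76, and 13 of 21 on the right, with a median of 0.14.

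Outside the 7 genes, the array profiles most like their mean over the 12 arrays, among 14225 other genes, were those of OAS2 (Pearson r = 0.98), OAS1 (0.97), NMI (0.96), ERAP2 (0.96) and IFI44 (0.95). OAS1 and OAS2 make the messenger that activates RNase L, NMI is an interferon-induced protein that binds MYC proteins, ERAP2 trims peptides for antigen presentation, and IFI44 is likewise induced by interferon. After removal of group means, r was 0.93 for OAS1 and 0.89 for OAS2, but 0.31 for NMI, 0.28 for ERAP2 and 0.15 for IFI44. Such values describe these arrays and are not tested.

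The other interferon-stimulated genes, 38 of 40 listed, were higher in the shRNA arrays than with GFP in all 38 cases, with a median log2 fold change of 0.87, close to the 0.84 of the restriction factors. Of all rows 54.4% were above 0. Of the 38 genes, 9 passed higher and 0 lower (limma), against 0.0591% and 0.00909% of all rows. The list was drawn up with results of these arrays known, so its count is no independent evidence. The largest differences were those of IFIT2 at 2.63, RSAD2 at 2.60, IFI44 at 2.49 and IFIT3 at 2.38. The other 5 that passed were IFIT1 at 2.24, NT5C3A at 1.81, PARP14 at 1.59, NMI at 1.58 and OAS2 at 1.45. With the full-length protein and with the deletion 0 of the 38 passed (limma). An unadjusted p under 0.05 (limma) was found for 6 and 11, all higher, as for 1.44% and 1.75% of rows on that side. In either direction it was found for 2.8% and 3.46% of rows. The medians were 0.13 and 0.30, against -0.01 over all rows in both comparisons. Above 0 were 30 and 34 of the 38, as were 48.6% and 48.4% of rows. Both comparisons share the GFP arrays, so these counts are no independent evidence either. RSAD2, for example, had 0.57 with the full-length protein and 1.05 with the deletion, and IFI44 had 0.51 and 0.91.

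Further restriction factors, 18 of 28 listed, had a median of 0.24 in the shRNA arrays relative to GFP, with 15 above 0. None passed (0 of 18 with limma; 6 had an unadjusted p under 0.05, all higher, as had 2.47% of rows). IFI16, a sensor of viral DNA, had 1.03 ± 0.19 (SE), MX2, which blocks nuclear entry of HIV, 0.77 ± 0.19, SLFN5 0.76 ± 0.27 and ADAR, the RNA editor, 0.69 ± 0.20. The remaining TRIM family, 45 of 75 listed genes, had a median of 0.03, near the 0.02 of all rows. None of them passed (0 of 45 with limma). An unadjusted p under 0.05 was found for 3 of the 45, 2 of them higher, against 5.04% of all rows in either direction. TRIM38, a regulator of innate immune signalling, had 0.69 and TRIM14, an adaptor at mitochondria, 0.47, while TRIM36 had -0.41 and TRIM2 -0.30.

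Interferon ligands, receptors and signalling genes, 23 of 30 listed, had a median of 0.10, and 0 of 23 passed (limma; 2 had an unadjusted p under 0.05, both higher, as had 2.47% of rows). TLR3, the endosomal sensor of double-stranded RNA, had 1.15 ± 0.28 (SE), IRF3 0.35, SOCS1 0.34 and IRF2 0.31. IFNB1, the interferon-beta gene, picked out after its value was seen, had 0.05 ± 0.26 (SE). IRF9, picked in the same way, had 0.10 ± 0.23 (SE). With a GFP mean of 2.14 the IFNB1 row is dim and not shown to be above background, so its value does not show an unchanged gene.

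**Figure D4:**
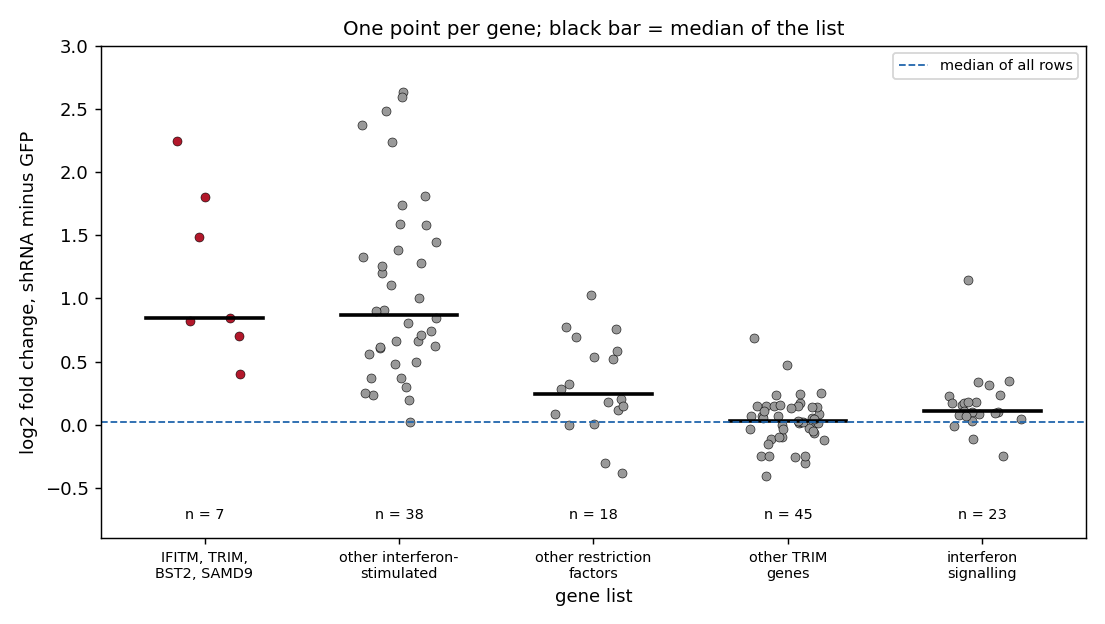
Log2 fold change, shRNA minus GFP, of each measured gene in 5 lists, with the list median as a black bar and the median of all rows (0.02) as a dashed line. The 7 restriction factors have a median of 0.84, other interferon-stimulated genes 0.87, other restriction factors 0.24, other TRIM genes 0.03 and interferon signalling genes 0.10. The 7 were chosen with these values known and are left out of the other lists, so the gaps between medians are no test.

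The genes next to the listed factors on their chromosomes were also read. The IFITM genes, TRIM21, and TRIM5 with TRIM22 lie on chromosome 11, SAMD9 and SAMD9L on 7, TRIM25 on 17 and BST2 on 19. The 3 nearest measured genes on each side of the 6 loci were 36 in all. Between the shRNA and GFP arrays their median log2 fold change was 0.16, against 0.02 over all rows, with a range of -0.37 to 0.47. The value of TRIM21, 0.40, lay inside that range and those of the other 6 measured factors lay above it. The factors were chosen with this comparison known, so nothing is read from that. Most neighbours of TRIM21, and of TRIM5 with TRIM22, were olfactory receptor genes, whose expression in these cells was not examined. At the SAMD9 locus the 6 neighbours had a median of 0.09, and at the IFITM locus 0.18.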

How the data were processed

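Arrays of 1 colour read the RNA of 12 HEK293 samples. Deposited values are log2 expression values, 1 per row and array; the authors made them with Partek and RMA on genome build hg18, per the submitters' processing notes. For software versions, probe set level and filters, no statement was found in these sources. No column was left out (0), and the values were used without further normalization or filter. Rows took gene symbols from the platform annotation, updated through RefSeq: 14432 rows had 1 symbol, 2408 several and 5171 none. A gene with several rows was read from the row of highest mean.

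limma 3.58.1 (R 4.3.3; lmFit, eBayes) fitted 1 mean per group, 4 in all, to every row over the 12 arrays (8 residual and 3.52 prior degrees of freedom), two-sided, with Benjamini-Hochberg adjustment over 22011 rows and a threshold of 0.05; intervals are 95% intervals from that fit. The fitting step was tested on simulated data. With 3 arrays a group, exact permutation p-values stop at 0.1, so none is given. The number of arrays limits the precision. Replicates are biological per the labels, which do not say whether they were separate cultures on separate days.

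Deviations of same-numbered arrays correlated at 0.10 to 0.23 for full-length MED12 with GFP and 0.15 to 0.47 for the deletion with GFP, which met the rule for treating the numbers as pairs. The p-values and intervals given come from the fit without a replicate block, which leaves this pairing out. The fit with the block is an alternative and changed no call of the 7 genes at the adjusted threshold. Its intervals and unadjusted p-values are not given. For the shRNA with GFP (0.02 to 0.46) and the deletion with the full-length protein (0.08 to 0.24) the rule was not met.

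Named genes were all measured members, MED12, the 5 genes most like the members' mean profile, up to 4 genes of largest difference per further list, and list genes past the threshold. KRT8, KRT18, PTPRC, COL1A1, COL1A2, CD14, IFNB1 and IRF9 fall outside this rule and were chosen after their values were seen. MED12L, the paralogue of MED12, had log2 fold changes of -0.025 with the shRNA, -0.07 with the full-length protein and 0.13 with the deletion. Members, lists and tests were chosen with earlier results of these data known. Alternatives were a replicate block, quantile normalization, median-centred and scaled arrays, only rows above the median level, an eBayes trend, fits of 2 groups, each array left out, and the 3 narrow arrays left out.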

Additional observations from a re-analysis of the deposited data

Results flagged for a closer look

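Row 3315658, annotated to IFITM2 and IFITM3 and outside the 7 single-gene rows, had all shRNA arrays above all GFP arrays, as in 4.71% of rows, with a log2 difference of 0.91. Its lowest GFP value, 2.84, was that of the narrow replicate 1. The dim row 3357840, annotated to the same genes, had -0.20. SAMD9L lay above the GFP mean in every shRNA array and below it in every full-length array, with a difference of 0.97 between the 2 groups; this difference between the groups was not tested. GFP replicate 1, at 2.45, lay above the full-length arrays of SAMD9L, at 2.04, 2.05 and 1.93, and GFP replicate 3, at 1.92, lay below them.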

How the results depend on the processing

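In the shRNA comparison, which chose the genes and so gives no test of them, 3 of the 7 lay past the threshold; the count was 1 to 3 when 1 array was left out, 0 in the fit of the 2 groups alone, 4 after quantile normalization and 3 with the replicate block. Over all rows, 15 calls in either direction became 23 after quantile normalization, 4 in the fit of the 2 groups alone, 5 without GFP replicate 2 and 8 without GFP replicate 3. The median log2 fold change, 0.84, was 0.79 to 1.00 with 1 array left out, 1.00 without the 3 narrow arrays and 1.49 over the 3 genes left by rows above the median level. That last filter gave a median of 0.28 for full-length MED12 and 0.38 for the deletion against GFP, and without the narrow arrays the deletion had 0.37. For these constructs, and between them, 0 of 7 genes passed under all 19 alternatives (limma), and the replicate block changed no call there. Signs turned for TRIM22 with full-length MED12 after quantile normalization (0.0069) and without the narrow arrays (0.10), and without these arrays also for SAMD9L (0.0299). They turned for BST2 with the deletion after quantile normalization (0.0406), and for SAMD9L between deletion and full-length without the narrow arrays (-0.0807). With 1 array left out, full-length minus GFP ran from -0.0539 to 0.25 for IFITM1, -0.0749 to 0.14 for TRIM21, -0.33 to 0.13 for TRIM22 and -0.23 to 0.0299 for SAMD9L. The deletion minus GFP ran from -0.0815 to 0.0663 for BST2 and -0.21 to 0.0724 for SAMD9L, and the deletion minus full-length from -0.0807 to 0.14 for SAMD9L and -0.0096 to 0.26 for TRIM25. The cause of these shifts was not tested. Dim rows (TRIM21, TRIM22, BST2, SAMD9L, IFNB1 and row 3357840) limit the sizes given.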
